A study of Mus musculus with 16 samples.

Results

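Cleavage and polyadenylation factors are the proteins that cut a nascent mRNA at its 3′ end and hand it on for addition of the poly(A) tail. Their messages were measured in mouse CD8+ T cells that carried a guide RNA against Tardbp or a control guide. The members were taken by gene symbol: Cpsf1, Cpsf2, Cpsf3, Cpsf4, Cpsf6, Cpsf7, Cstf2, Cstf2t, Nudt21 and Pcf11, which are 10 of the 55536 annotated genes with counts, and all 10 passed the filter on low counts. Their levels were read against the choice of 3′ end, because the study asked whether Tardbp, which encodes the RNA-binding protein TDP-43, shapes splicing and polyadenylation in costimulated CD8+ T cells.

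The cells were OT-I T cells (strain OT-1 Tg C57BL/6J, whose receptor recognizes the ovalbumin peptide SIINFEKL) that had been electroporated with Cas9 and a scrambled control guide RNA (Control gRNA) or a Tardbp guide RNA (Tardbp gRNA). Cells of both groups were transferred into C57BL/6J mice, which then received antigen and the agonist antibodies anti-OX40 and anti-41BB, and CD8+ T cells were sorted from spleen and lymph nodes after 4 days by the labels, where the study's methods give a somewhat shorter time. Each group had 8 libraries, with 73649630 to 93893357 counts in the Control gRNA libraries and 56016533 to 94801105 in the Tardbp gRNA libraries. The targeted cells were an edited pool and not a clone, and no age of the animals was given in the labels.

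Tardbp RNA itself checked the labels. It lay between 172 and 207 CPM (counts per 1000000 of the scaled library total) with a median of 198 in the Control gRNA libraries and between 110 and 147 CPM with a median of 136 in the Tardbp gRNA libraries. The groups did not overlap, and the log2 fold change of Tardbp gRNA against Control gRNA was -0.51 ± 0.056 (SE, edgeR quasi-likelihood test, adjusted p = 8.07e-07). The markers of CD8 T cells Cd8a, Cd8b1, Cd3e, Cd3g and Trac were abundant in all libraries. In the Tardbp gRNA group 5 of 5 were higher (edgeR, adjusted p under 0.05), against 23.5% of all genes tested. Their summed level was 3068 to 3835 CPM in Control gRNA and 4758 to 6080 CPM in Tardbp gRNA.

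The 3′ end of most mRNAs is made by a set of complexes. The cleavage and polyadenylation specificity factor (CPSF) recognizes the signal AAUAAA and cuts the RNA, the cleavage stimulation factor (CstF) binds the GU-rich sequence past the cut, cleavage factor I binds UGUA upstream of the signal, and cleavage factor II links cleavage to the end of transcription. Many genes have more than 1 such signal, and T cell activation is known for a broad move toward proximal ends and shorter 3′ untranslated regions.

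Of the 10 factors, 6 fell in the Tardbp gRNA cells and 0 rose (edgeR, adjusted p under 0.05). Those that fell were the 4 CPSF subunits among the 10 (Cpsf1, Cpsf2, Cpsf3 and Cpsf4), the CstF subunit Cstf2, and Cpsf6, the larger partner within cleavage factor I. Nudt21, Cpsf7, Cstf2t and Pcf11 did not pass the test. Over all 16650 genes tested, 46.7% were called, with 23.3% lower and 23.5% higher. The median log2 fold change of the 10 factors was -0.32, against 0.05 over all genes tested. In 5 of the 10 every Tardbp gRNA library lay below every Control gRNA library, as it did for 10.3% of all genes tested.

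**Figure D1:**
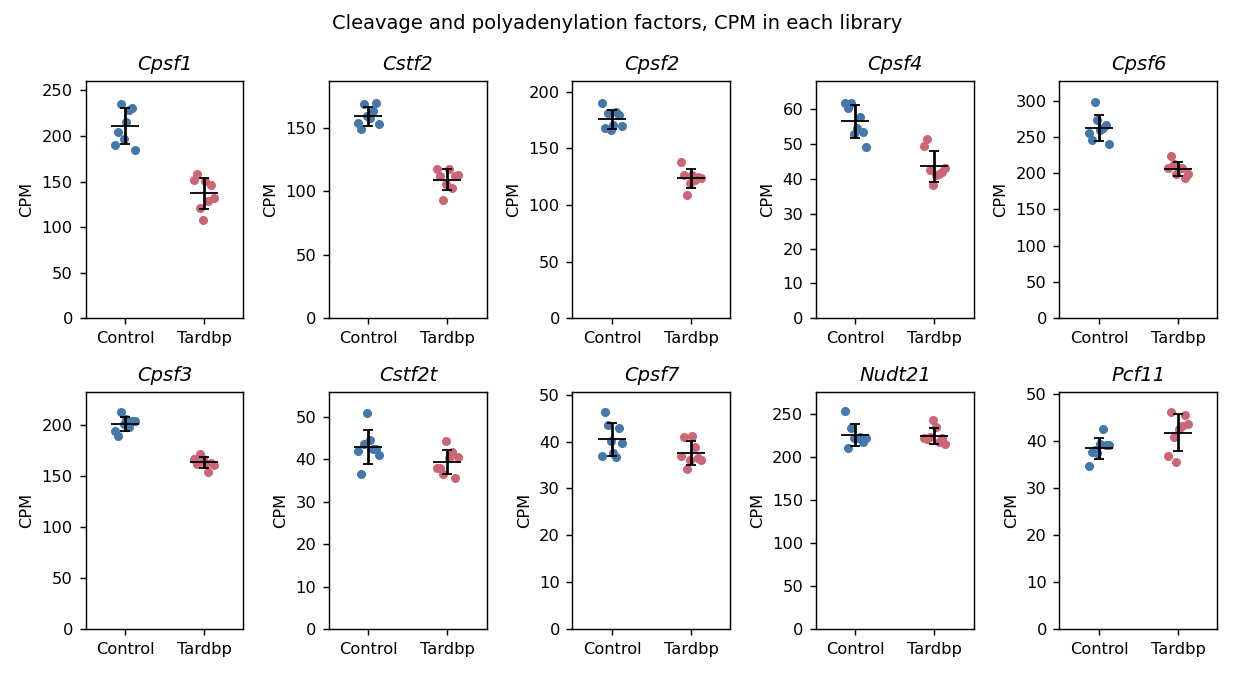
CPM of the 10 factors in each library, ordered by fold change and each point is 1 library (8 per group), the black dash is the group mean and the bar 1 SD. The 8 Tardbp gRNA libraries sit below all 8 Control gRNA libraries for Cpsf1, Cstf2, Cpsf2, Cpsf6 and Cpsf3, and within or near the Control gRNA range for Nudt21.

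Among the CPSF subunits, Cpsf1, the large scaffold that holds the complex together, fell most. Its level was 185 to 235 CPM (median 210) in Control gRNA and 108 to 158 CPM (median 139) in Tardbp gRNA. The groups did not overlap, and Tardbp gRNA stood at 65.0% of Control gRNA with a log2 fold change of -0.62 ± 0.076 (SE, edgeR test with adjusted p = 2.83e-06). Cpsf1 (ENSMUSG00000034022.8) lies on the minus strand at chr15:76595803-76607591 of GRCm38.

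Cpsf3 is the endonuclease that makes the cut, and Cpsf2 is its catalytically inactive relative with which it pairs. Cpsf2 ranged from 166 to 190 CPM (median 175) in Control gRNA and from 109 to 138 CPM (median 124) in Tardbp gRNA, a log2 fold change of -0.51 ± 0.044 (SE, edgeR test with adjusted p = 1.05e-07). Cpsf3 ranged from 189 to 213 CPM (median 203) and from 154 to 172 CPM (median 163), a log2 fold change of -0.30 ± 0.032 (SE, edgeR test with adjusted p = 7.77e-07). Neither gene had overlapping groups. Cpsf2 (ENSMUSG00000041781.9) lies at chr12:101975988-102006424 and Cpsf3 (ENSMUSG00000054309.9) at chr12:21285391-21315056, both on the plus strand.

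Cpsf4 is the zinc-finger subunit that reads the signal together with Wdr33. It was 49.3 to 61.9 CPM (median 56.3) in Control gRNA and 38.4 to 51.4 CPM (median 42.4) in Tardbp gRNA, so that 6 of the 8 Tardbp gRNA libraries lay below the lowest Control gRNA library and the other two overlapped it. The log2 fold change was -0.37 ± 0.066 (SE, edgeR test with adjusted p = 0.000152). With the RNA concentration of each library as a covariate the Cpsf4 level differed by -0.35 ± 0.14 (SE), about as much, but the wider error ended the call (edgeR, adjusted p = 0.102). That concentration was 34.9 to 197.1 for the Control gRNA libraries and 10.1 to 24.0 for the Tardbp gRNA libraries, in a unit not given, so it and the group cannot be told apart by that fit. Cpsf4 (ENSMUSG00000029625.16) lies on the plus strand at chr5:145167213-145182041.

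The CstF pair split. Cstf2, the X-linked RNA-binding subunit, was 149 to 169 CPM (median 158) in Control gRNA and 93.1 to 117 CPM (median 112) in Tardbp gRNA. The groups did not overlap, with a log2 fold change of -0.54 ± 0.048 (SE, edgeR test with adjusted p = 1.06e-07). Its paralog Cstf2t, a copy with a single exon, was 36.6 to 51.0 CPM (median 42.5) and 35.5 to 44.2 CPM (median 39.2). Its groups overlapped in 7 of 8 Tardbp gRNA libraries and the log2 fold change of -0.13 ± 0.062 (SE) did not pass (edgeR adjusted p = 0.104). That call was gained without Control gRNA replicate 2 or 8 or Tardbp gRNA replicate 4 or 6, with an edgeR adjusted p between 0.0237 and 0.0496. No stretch of 50 bases of the Cstf2t transcript occurred in a transcript of another gene, Cstf2 included. Cstf2 (ENSMUSG00000031256.11) lies at chrX:134059187-134086819 and Cstf2t (ENSMUSG00000053536.7) at chr19:31082837-31087069, both on the plus strand.

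Cleavage factor I also divided. Nudt21, the subunit that binds UGUA, was 210 to 253 CPM (median 222) in Control gRNA and 214 to 242 CPM (median 221) in Tardbp gRNA. The ranges lay almost on each other, and the log2 fold change was -0.01 ± 0.039 (SE, edgeR test with adjusted p = 0.931), with a sign that turned in 4 alternatives. Of the 50-base stretches in Nudt21 transcripts, 11.8% also occurred in Gm13728 or Gm7488, so a part of its counts may have been split with those genes.

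Cpsf6 and Cpsf7 are alternative partners of Nudt21 in that factor. Cpsf6 fell, from 240 to 298 CPM (median 261) in Control gRNA to 193 to 224 CPM (median 208) in Tardbp gRNA without overlap, at a log2 fold change of -0.35 ± 0.043 (SE, edgeR test with adjusted p = 3.18e-06). Cpsf7 was 36.7 to 46.3 CPM (median 39.9) and 34.1 to 41.2 CPM (median 36.7), and its log2 fold change of -0.11 ± 0.059 (SE) did not pass (edgeR adjusted p = 0.154). In GRCm38, Nudt21 (ENSMUSG00000031754.10) lies at chr8:94015496-94037031 and Cpsf6 (ENSMUSG00000055531.12) at chr10:117344673-117380015, both on the minus strand, and Cpsf7 (ENSMUSG00000034820.4) at chr19:10525266-10547653 on the plus strand.

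Pcf11, the subunit of cleavage factor II that binds the tail of RNA polymerase II, had the only positive value of the 10. It was 34.6 to 42.6 CPM (median 38.5) in Control gRNA and 35.5 to 46.1 CPM (median 42.8) in Tardbp gRNA. Of the Tardbp gRNA libraries, 5 of 8 lay above the highest Control gRNA library and 3 lay within its range. The log2 fold change of 0.12 ± 0.059 (SE) did not pass (edgeR adjusted p = 0.113). Pcf11 (ENSMUSG00000041328.16) lies on the minus strand at chr7:92643543-92669934.

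Other RNAs also differed between the groups. Of 10 listed genes of dividing cells, 8 were lower in Tardbp gRNA (edgeR, median log2 fold change -0.49), against 23.3% of all genes tested. Their summed level was 6260 to 6940 CPM in Control gRNA and 3721 to 4909 CPM in Tardbp gRNA. Globin genes of red cell precursors (Hba-a1, Hbb-bs and Hbb-bt) were higher in 3 of 3, summing to 0.268 to 12.8 CPM and 7.46 to 138.9 CPM. Of 4 myeloid genes 2 were higher (Lyz2 and S100a8), the list summing to 25.2 to 49.1 CPM and 44.0 to 104.6 CPM. Over all genes tested, 23.5% were higher. Cd4, the marker of CD4 T cells, was at most 0.601 CPM in Control gRNA and 0.555 CPM in Tardbp gRNA, was at 0 in at least 1 library of each group and did not pass (edgeR, adjusted p = 0.96). Their part in the lower factors was not tested, and in bulk RNA fewer cells of a type and less RNA per cell cannot be told apart.

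The deposited letter M or F, given under the heading sex, was 3 M and 5 F in Control gRNA and 5 M and 3 F in Tardbp gRNA. For X-linked Cstf2 the log2 fold change was -0.51 ± 0.060 (SE, edgeR test with adjusted p = 0.00027) in the libraries of letter F and -0.58 ± 0.079 (SE, edgeR test with adjusted p = 0.00222) in those of letter M, a split chosen after the data had been seen. The interaction of letter and group was called in 0 of the 10 factors by edgeR, with 0 at an unadjusted p under 0.05 and no other tool run. It was called in 0.0% of all 16650 genes, so the count says nothing particular of the factors.

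The levels in the Control gRNA cells were compared per length, as TPM (counts divided by transcript length and scaled to a total of 1000000 in every library). Nudt21 was the most abundant at 208 ± 30.5 TPM (SD, n = 8), followed by Cpsf3 at 136 ± 6.61, Cpsf6 at 86.6 ± 7.02, Cpsf1 at 78.9 ± 7.93, Cstf2 at 68.1 ± 5.18, Cpsf4 at 55.7 ± 4.64 and Cpsf2 at 50.5 ± 2.09 TPM. Cpsf7 at 20.2 ± 2.02, Cstf2t at 16.7 ± 1.56 and Pcf11 at 12.3 ± 0.975 TPM were the 3 least abundant. Each of the 9 pairs of neighbours in this order differed beyond the spread between libraries (exact two-sided sign-flip permutation test, adjusted p = 0.00879 for 8 pairs and 0.0156 for Cpsf4 over Cpsf2). When each gene was scaled by its longest transcript, Nudt21 ranked below Cpsf3 and Cpsf1, and was not shown to differ from Cpsf1 (exact sign-flip permutation test, adjusted p = 0.438). That scaling also put Cpsf1 above Cpsf6 and turned the order of Cpsf2, Cstf2 and Cpsf4, with Cpsf2 above Cstf2 by 0.54 on the log2 scale (exact sign-flip permutation test, adjusted p = 0.0117) and Cstf2 above Cpsf4 by 0.16 (exact sign-flip permutation test, adjusted p = 0.0352). Cpsf7, Cstf2t and Pcf11 were the 3 lowest under both scalings.

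Ratios between the factors give their balance within the same library. Of 8 ratios of per-length levels set out for testing, 7 differed between the groups (exact two-sided permutation test, adjusted p under 0.05 over the 8 ratios). Ratios of other genes were not computed, so this count has no background. A ratio of a factor that fell to one that did not pass restates in part the gene test above. Cstf2 stood at 4.10 ± 0.409 (SD, n = 8) times Cstf2t in Control gRNA and 3.02 ± 0.298 times in Tardbp gRNA, a log2 difference of -0.44 ± 0.074 (SE, exact permutation test, adjusted p = 0.000932). Cpsf6 against Nudt21 went from 0.427 ± 0.0859 to 0.291 ± 0.0234, a log2 difference of -0.53 ± 0.11 (SE, exact permutation test, adjusted p = 0.000829). With each gene scaled by its longest transcript this ratio Cpsf6/Nudt21 differed by -0.34 (exact permutation test, adjusted p = 0.000622).

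Pcf11 against the endonuclease Cpsf3 went the other way. The ratio was 0.0905 ± 0.00598 in Control gRNA (lowest 0.0823, highest 0.1001) and 0.131 ± 0.0151 in Tardbp gRNA (lowest 0.105, highest 0.152). The groups did not overlap, and the log2 difference was 0.53 ± 0.069 (SE, exact permutation test, adjusted p = 0.000622). With each gene scaled by its longest transcript this ratio Pcf11/Cpsf3 differed by 0.41 and kept its call. Pcf11 against Nudt21 was 0.0605 ± 0.0105 and 0.0613 ± 0.0102, a log2 difference of 0.02 ± 0.13 (SE, exact permutation test, adjusted p = 0.86), a value within its own error of 0.

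**Figure D2:**
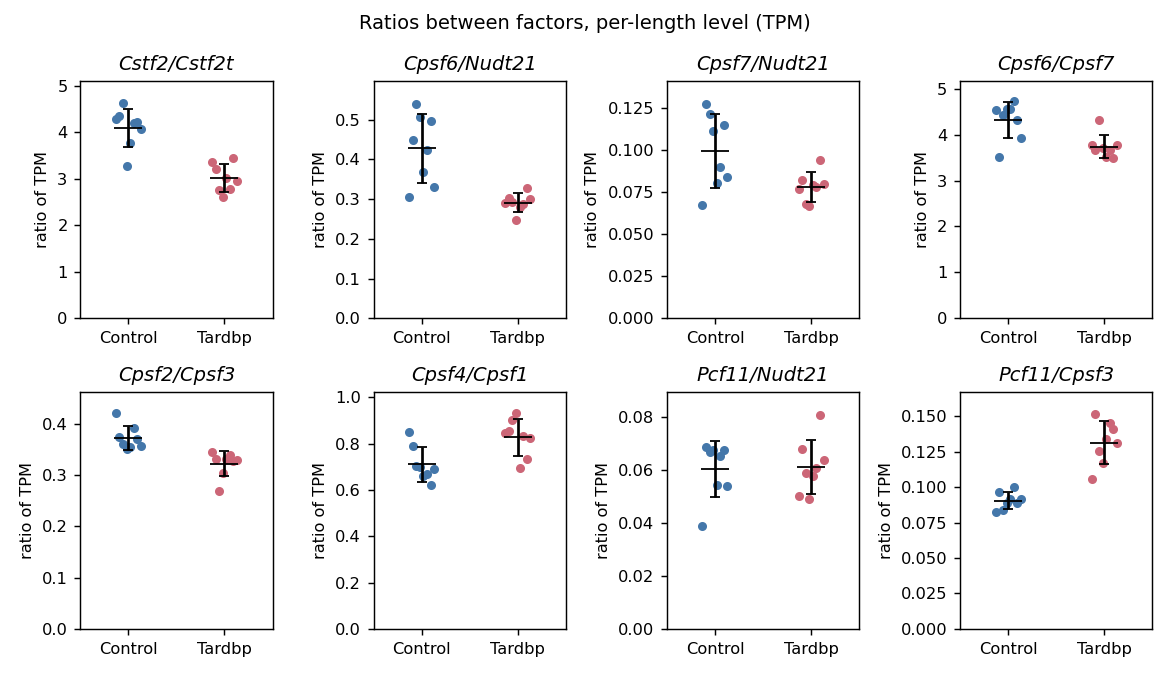
Ratios of per-length levels (TPM) between pairs of factors in each library and each point is 1 library (8 per group), the black dash is the group mean and the bar 1 SD. Cstf2 against Cstf2t goes from a mean of 4.10 to 3.02, and Pcf11 against Cpsf3 from 0.0905 to 0.131 with no overlap.

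Among the CPSF subunits of the list the fall was not even. Cpsf2 against Cpsf3 went from 0.373 ± 0.0236 to 0.323 ± 0.0243, a log2 difference of -0.21 ± 0.051 (SE, exact permutation test, adjusted p = 0.000622), and Cpsf4 against Cpsf1 went from 0.711 ± 0.0746 to 0.828 ± 0.0794, a log2 difference of 0.22 ± 0.072 (SE, exact permutation test, adjusted p = 0.0139). Cpsf6 against Cpsf7 differed by -0.21 ± 0.060 (SE, exact permutation test, adjusted p = 0.0119). Cpsf7 against Nudt21 differed by -0.33 ± 0.13 (SE, exact permutation test, adjusted p = 0.0302), but with each gene scaled by its longest transcript this was -0.10 (exact permutation test, adjusted p = 0.202). For this ratio Cpsf7/Nudt21 the call was also lost in libraries numbered 4 to 8 only (-0.27, exact permutation test, adjusted p = 0.0907) and without any 1 of 6 libraries (Control gRNA replicate 2, 3, 4 or 7 or Tardbp gRNA replicate 3 or 4; between -0.30 and -0.27).

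The rest of the machinery was read from 3 lists. Of 16 other mRNA end-forming factors, 15 were tested, 8 fell and 2 rose (edgeR, median log2 fold change -0.16). Over all genes tested, 46.7% were called, 23.3% lower and 23.5% higher. Sympk, the scaffold symplekin, fell most, from 66.1 to 82.2 CPM (median 76.9) to 32.9 to 51.6 CPM (median 49.5), a log2 fold change of -0.70 ± 0.088 (SE, edgeR test with adjusted p = 3.6e-06). Pabpn1, the nuclear poly(A)-binding protein known to favour distal ends, was 46.5 to 81.1 CPM (median 62.0) and 68.2 to 113 CPM (median 84.5), a log2 fold change of 0.44 ± 0.14 (SE, edgeR test with adjusted p = 0.0119) with 4 of 8 Tardbp gRNA libraries above all Control gRNA libraries. The Pabpn1 level lost its call in libraries numbered 4 to 8 only, at 0.37 ± 0.15 (SE, edgeR adjusted p = 0.0644), and with the RNA concentration as a covariate, where the fold was larger at 0.80 ± 0.28 (SE, edgeR adjusted p = 0.0631). The other gene that rose was Ssu72, a phosphatase of the polymerase tail, at 0.19 ± 0.033 (SE, edgeR test with adjusted p = 0.000158). Papolb was not tested and was at 0 in all Control gRNA libraries.

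Histone messages are not polyadenylated and have factors of their own, yet use the Cpsf2 and Cpsf3 pair for the cut. Of 6 such factors 4 fell and 1 rose (edgeR, median log2 fold change -0.34), against 23.3% lower and 23.5% higher over all genes tested. Zfp473 had the lowest value, going from 5.95 to 8.90 CPM (median 8.33) to 3.43 to 6.59 CPM (median 4.53), a log2 fold change of -0.74 ± 0.12 (SE, edgeR test with adjusted p = 9.17e-05), and Lsm10, a ring subunit of the U7 particle, was the gene that rose, at 0.31 ± 0.068 (SE, edgeR test with adjusted p = 0.000993).

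Integrator is the complex that ends small nuclear RNAs and cuts short transcripts near promoters, with an endonuclease related to Cpsf3. Of its 14 measured subunits 13 fell and 0 rose (edgeR, median log2 fold change -0.43), against 23.3% lower and 23.5% higher over all genes tested. Ints7 went from 156 to 193 CPM (median 173) to 86.3 to 121 CPM (median 106), a log2 fold change of -0.75 ± 0.069 (SE, edgeR test with adjusted p = 1.53e-07), and Ints9 had the smallest fall at -0.29 ± 0.043 (SE, edgeR test with adjusted p = 2.86e-05). Ints12, chosen here after its value was seen, was the subunit that did not pass, at -0.01 ± 0.046 (SE, edgeR test with adjusted p = 0.855).

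**Figure D3:**
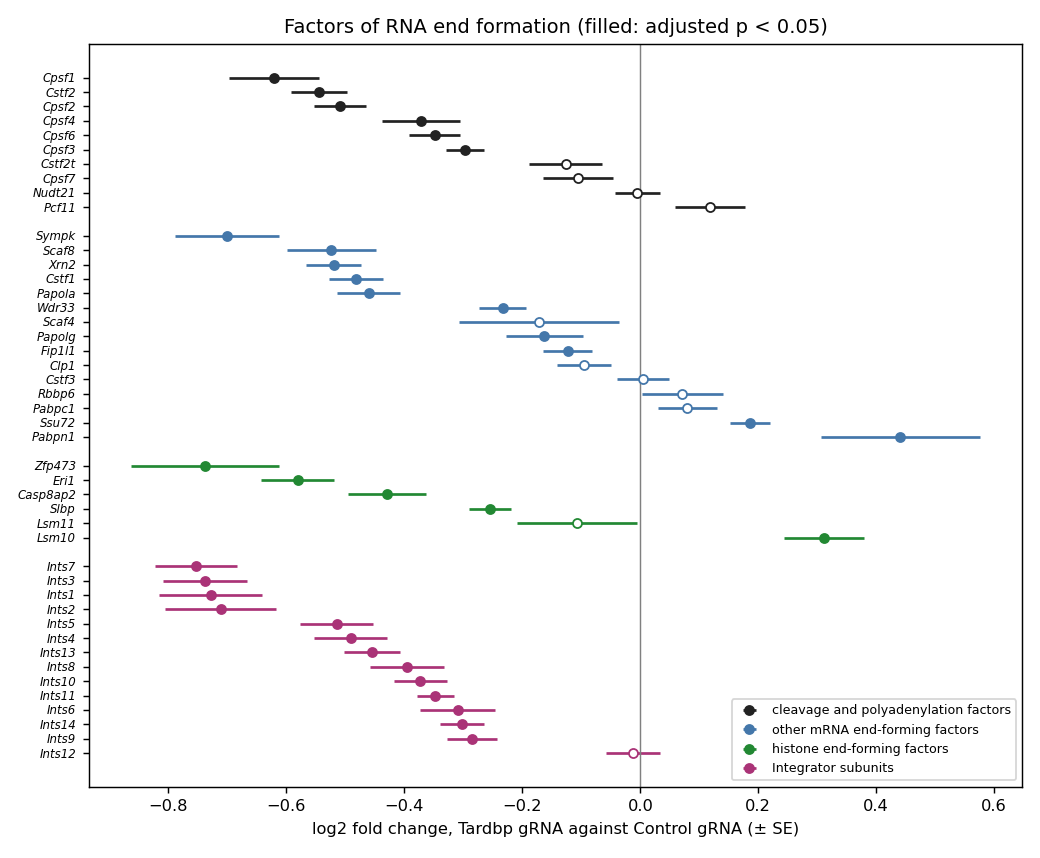
Log2 fold change of Tardbp gRNA against Control gRNA (± SE, edgeR) for the 10 cleavage and polyadenylation factors and the 3 related lists and filled points had an adjusted p under 0.05. Of the 10 factors 6 are filled and all 6 lie below 0, and Pabpn1 at 0.44 is the highest of all points.

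The factors have transcripts that can end at several places, so their levels were also tested by transcript. Of their 73 annotated transcripts 38 were tested, and 10 were called, 9 lower and 1 higher (edgeR, 16.6% of all 40897 transcripts tested were called). The transcript that rose belonged to Pcf11, and a transcript of Nudt21 that ends at its distal site was among those that fell. Ends of some transcripts of Pcf11, Nudt21 and Cstf2 are shown as 30-base windows around the hexamer, in the direction of the RNA. They are from the GENCODE M21 transcripts (GRCm38), with that polyadenylation signal (AATAAA, or its common variant ATTAAA) in capitals. The forms were picked as ends that carry a signal.
Pcf11-205, inside the first intron: ataaaatttgtgAATAAAacatataaaata
Pcf11-201, full length: tacatatacagtATTAAAacttgtgatttt
Nudt21-204, proximal end: ttttttttgtacATTAAAgaaagtgaattt
Nudt21-201, distal end: cactgttatttcAATAAAaatatttaaaac
Cstf2-202, upstream end: tggtatatatagAATAAAaatgtattttct
Cstf2-201, distal end: ctgtcgtggattcAATAAAtattttaaaag

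The hexamers were searched on the transcript strand in the last 50 bases, where 46.3% of 55168 transcripts of coding genes with a complete end hold AATAAA and 57.3% hold AATAAA or ATTAAA. Neither was found there in Cstf2-203, or in Pcf11-204, an annotated form that ends at position 92669221 of chr7. The 2 proximal forms differ: Pcf11-205 has AATAAA while the full-length Pcf11-201 has ATTAAA, and Nudt21-204 has ATTAAA while Nudt21-201 has AATAAA. The sequence TGTA, which cleavage factor I binds, occurred 1 time in the last 100 bases of Pcf11-205, Nudt21-201, Nudt21-204 and Cstf2-201, 4 times in Cstf2-202 and 0 times in Pcf11-201, and 46.0% of 55123 transcripts hold it there at least 1 time. TGTGTG, a repeat of the kind TDP-43 binds, was in the last 500 bases of Pcf11-201 and Pcf11-205 and not of Nudt21-201, Nudt21-204, Cstf2-201 or Cstf2-202, and 25.8% of 52730 transcripts hold it there.

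Pcf11-205 is a single exon of 1720 bases (chr7:92668184-92669903, minus strand) that reads from exon 1 into intron 1 of Pcf11-201 and ends 1245 bases into that intron, which is 3563 bases long (chr7:92665866-92669428). Pcf11 is known to limit its own message by premature polyadenylation in that intron. The transcript had 1.37 to 2.75 CPM (median 2.17) in Control gRNA and 2.70 to 5.12 CPM (median 4.05) in Tardbp gRNA, and 7 of 8 Tardbp gRNA libraries lay above all Control gRNA libraries. The log2 fold change was 0.90 ± 0.17 (SE, edgeR test with adjusted p = 0.00129). With the RNA concentration as a covariate the Pcf11-205 level differed by 0.44 and the call was lost (edgeR, adjusted p = 0.702), and that covariate did not overlap between the groups. Pcf11-201, with 16 exons, was 33.7 to 40.0 CPM (median 35.1) and 30.5 to 39.7 CPM (median 37.6), at a log2 fold change of 0.04 ± 0.064 (SE, edgeR test with adjusted p = 0.765).

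The short form took 5.50 ± 1.03% (SD, n = 8) of Pcf11 counts in Control gRNA and 9.77 ± 2.098% in Tardbp gRNA. That difference of 4.27 ± 0.811 percentage points (SE) had an adjusted p of 0.00784 in limma, but is under the 10 points that a call needed. Among the alternatives its limma adjusted p reached 0.101, with a difference of 4.27 to 4.29 points. Reads of unspliced Pcf11 RNA cover the same intron and cannot be told apart from the short form in these counts. Pcf11-203, which starts downstream and has 13 exons, was 0.175 to 3.21 CPM (median 1.51) and 0.0359 to 1.30 CPM (median 0.782), a log2 fold change of -1.06 ± 0.61 (SE, edgeR test with adjusted p = 0.281).

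Nudt21-201 and Nudt21-204 hold the same number of exons (7) and end 3952 bases apart, at positions 94015496 and 94019448 of chr8. The distal form Nudt21-201 had 76.2 to 143 CPM (median 118) in Control gRNA and 61.8 to 119 CPM (median 73.4) in Tardbp gRNA. The groups overlapped in 3 of 8 Tardbp gRNA libraries, and the log2 fold change was -0.50 ± 0.15 (SE, edgeR test with adjusted p = 0.0314). The call did not hold for most alternatives. For the Nudt21-201 level, without any 1 of 10 libraries (Control gRNA replicate 3, 4, 6 or 7 or Tardbp gRNA replicate 1 to 6) the edgeR adjusted p was 0.0507 to 0.065, in libraries numbered 4 to 8 only the log2 fold change was -0.40 (edgeR adjusted p = 0.298), and with the RNA concentration as a covariate it was -0.55 with a wider error (edgeR adjusted p = 0.551). The proximal form Nudt21-204 had 75.5 to 167 CPM (median 94.8) and 87.9 to 165 CPM (median 139), a log2 fold change of 0.31 ± 0.17 (SE, edgeR test with adjusted p = 0.26).

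As a share of Nudt21 counts, the distal form went from 48.7 ± 12.2% (SD, n = 8) to 35.3 ± 8.32%, a difference of -13.4 ± 5.10 percentage points (SE, limma adjusted p = 0.177), and the proximal form from 47.0 ± 12.7% to 60.7 ± 8.62% (limma adjusted p = 0.19). The short coding transcript Nudt21-202, was 5.44 to 13.2 CPM (median 8.57) and 5.99 to 9.57 CPM (median 7.55) and did not pass (-0.18 ± 0.16, SE; edgeR adjusted p = 0.534). None of the 36 tested transcript shares of the factors passed both criteria in limma, with 10 at an unadjusted p under 0.05 (5 of these over 10 points). Over all 32701 shares, 0.63% passed both criteria and 4.45% the adjusted p alone, against 1 of 36 here (Pcf11-205).

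**Figure D4:**
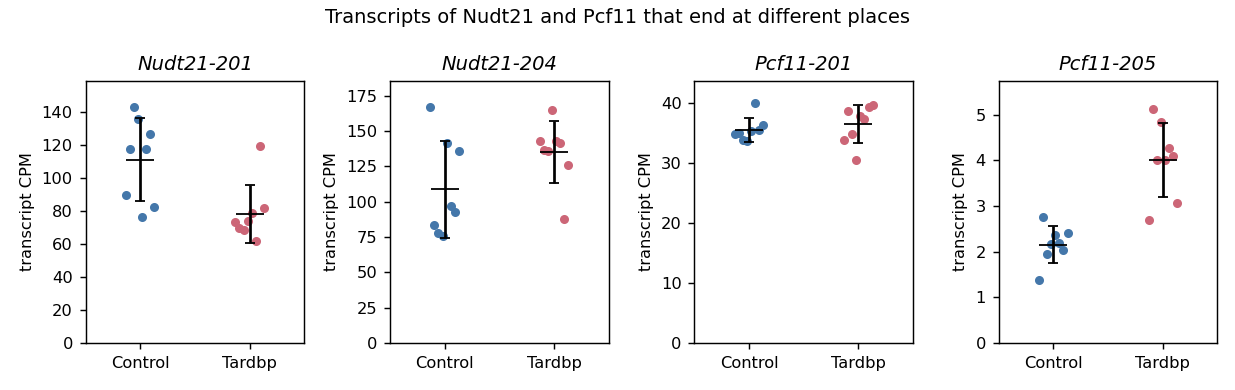
CPM of the distal (Nudt21-201) and proximal (Nudt21-204) transcripts of Nudt21 and of the full-length (Pcf11-201) and intronic-end (Pcf11-205) transcripts of Pcf11 in each library and each point is 1 library (8 per group), the black dash is the group mean and the bar 1 SD. Pcf11-205 goes from a median of 2.17 to 4.05 CPM while Pcf11-201 stays between 30.5 and 40.0 CPM.

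For Cstf2 the 2 called transcripts, which have different ends, were both lower in Tardbp gRNA. Cstf2-201, which ends at the last position of the gene, was 48.5 to 135 CPM (median 108) in Control gRNA and 51.9 to 89.3 CPM (median 67.5) in Tardbp gRNA, a log2 fold change of -0.56 ± 0.18 (SE, edgeR test with adjusted p = 0.0386) that did not pass without any 1 of 10 libraries (Control gRNA replicate 4 to 8 or Tardbp gRNA replicate 1, 3, 4, 6 or 7). Cstf2-202, which ends 10956 bases upstream, was 22.6 to 46.1 CPM (median 27.9) and 8.17 to 28.2 CPM (median 17.8), a log2 fold change of -0.74 ± 0.21 (SE, edgeR test with adjusted p = 0.0203). Cstf2-203, which ends 773 bases before Cstf2-201, was 3.82 to 50.1 CPM (median 17.2) and 6.08 to 30.3 CPM (median 19.4), and Cstf2-207, a retained-intron form, was 0.507 to 19.4 CPM (median 1.63) and 0.251 to 5.78 CPM (median 1.92). Neither passed, with log2 fold changes of -0.48 ± 0.50 (SE, edgeR test with adjusted p = 0.597) and -0.79 ± 0.77 (SE, edgeR test with adjusted p = 0.566).

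The other called transcripts were forms of the CPSF genes and of Cpsf6. Cpsf1-201 went from a median of 144 to 92.2 CPM (-0.68 ± 0.14, SE; edgeR adjusted p = 0.00221). Cpsf2-201 went from 176 to 123 CPM (-0.55 ± 0.056, SE; edgeR adjusted p = 6.82e-06), and Cpsf3-201 from 204 to 160 CPM (-0.34 ± 0.034, SE; edgeR adjusted p = 6.26e-06). These are the main coding forms of the 3 genes. With the RNA concentration as a covariate the Cpsf1-201 level differed by -0.65 ± 0.28 (SE, edgeR adjusted p = 0.343) and the Cpsf2-201 level by -0.46 ± 0.12 (SE, edgeR adjusted p = 0.0657), falls of a like size with wider errors.

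Cpsf6-201, with the long 3′ untranslated region, went from a median of 223 to 164 CPM (-0.42 ± 0.041, SE; edgeR adjusted p = 5.4e-06), and Cpsf6-206, which ends 4369 bases earlier, from 18.5 to 14.1 CPM (-0.38 ± 0.091, SE; edgeR adjusted p = 0.00878). Cpsf4-205 went from a median of 15.8 to 7.07 CPM (-1.52 ± 0.43, SE; edgeR adjusted p = 0.0215), with 4.00 to 36.6 CPM among the Control gRNA libraries, so that 7 of 8 Tardbp gRNA libraries lay within that range. The Cpsf4-205 level varied with the fit, at -1.15 with a term for the library number (edgeR adjusted p = 0.156) and -3.40 with the RNA concentration as a covariate (edgeR adjusted p = 0.0259).

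To read 3′ end choice per gene, the transcripts of each gene were scaled by length and the share at the most distal annotated end was taken in each library. Of 5700 genes with 2 or more ends, 26 had a lower and 17 a higher distal share (limma, adjusted p under 0.05 and a difference over 10 percentage points), which is 0.754% of those tested. Of the 7 factors with such ends none passed both criteria, with 3 at an unadjusted p under 0.05 (Pcf11, Nudt21 and Cpsf7) and 1 past the adjusted p alone, as 2.26% of all genes tested were. Pcf11 came nearest, at 76.1 to 86.9% (median 78.4%) in Control gRNA and 63.0 to 77.1% (median 71.3%) in Tardbp gRNA, a difference of -8.14 ± 2.00 percentage points (SE, limma adjusted p = 0.0488). Its limma adjusted p reached 0.343 among the alternatives and 0.0937 without 1 library.

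Nudt21 had a distal share of 10.2 to 26.5% (median 19.8%) in Control gRNA and 8.49 to 20.8% (median 9.67%) in Tardbp gRNA, a difference of -6.94 ± 2.69 points (SE, limma adjusted p = 0.299). Cpsf7 had a positive value, from 53.9 to 87.6% (median 76.5%) to 75.1 to 98.0% (median 85.3%), a difference of 12.4 ± 4.78 points (SE, limma adjusted p = 0.294). That value rested on the distance at which ends are joined: with ends joined within 500 bases in place of 200, the Cpsf7 distal share, percentage points of difference, was 0.494 (limma adjusted p = 0.72), and in libraries numbered 4 to 8 only it was 19.96 (limma adjusted p = 0.224). The differences were -2.27 ± 1.06 points for Cpsf6, 1.40 ± 3.23 for Cpsf4, 0.997 ± 6.68 for Cstf2 and -0.14 ± 0.19 for Cpsf3 (SE, limma adjusted p between 0.427 and 1.0). Cpsf1, Cpsf2 and Cstf2t had no second end in that measure.

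**Figure D5:**
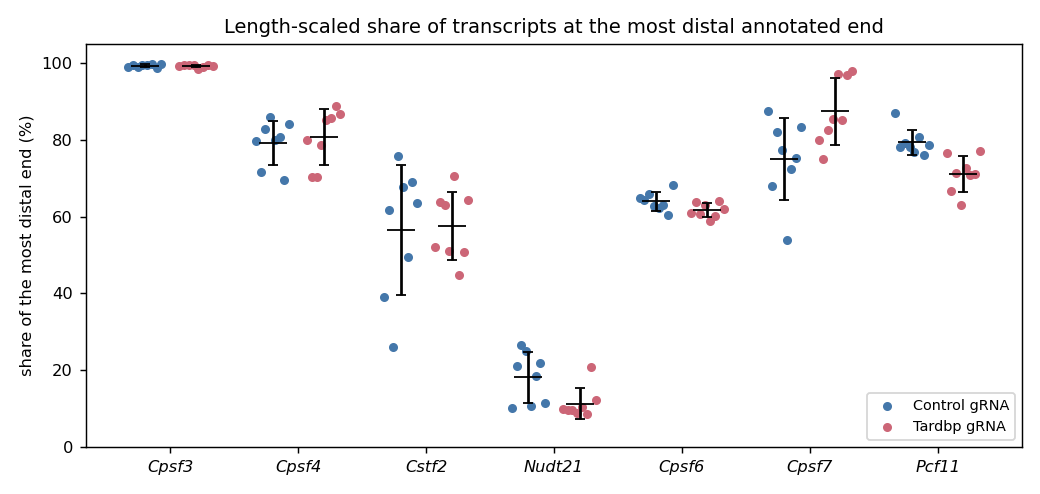
Length-scaled share of transcripts at the most distal annotated end, in percent, for the 7 factors with 2 or more ends and each point is 1 library (8 per group), the black dash is the group mean and the bar 1 SD. Pcf11 has a median of 78.4% for Control gRNA and 71.3% for Tardbp gRNA, and Cstf2 is spread most widely in Control gRNA, by 17.0% (SD).

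The authors' Psi table, from Whippet, gave 1 fraction per node and group with no value per library, so these values carry no error here. Its columns name the groups only as A and B, and A was taken as Control gRNA and B as Tardbp gRNA from the study's text, so every direction below rests on that assignment. It held nodes of 9 of the 10 factors. Of their 12 tandem 3′ end nodes, in 5 genes, 2 differed by more than 0.1 between the groups, which is 16.7%, against 21.5% of all 12425 such nodes, so the count is not a result about these genes. Both lay in Pcf11: the node chr7:92669221-92669428, next to exon 1, was 0.148 in Control gRNA and 0.00813 in Tardbp gRNA, and the node chr7:92668184-92669220, which leads to the end of Pcf11-205, was 0.851 and 0.992. They divide the transcripts that end in the first intron and leave out the full-length end.

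In Cstf2 the distal node chrX:134086047-134086819 was 0.691 in Control gRNA and 0.767 in Tardbp gRNA. In Cpsf6 the distal node chr10:117344673-117349038 was 0.0984 and 0.101. That is far below the mean distal share of Cpsf6 from transcript counts, 64.0% in Control gRNA and 61.7% in Tardbp gRNA. In Nudt21 the distal node chr8:94015496-94019447 was 0.0183 and 0.0120, on a lower level than the distal share from transcript counts. In Cpsf4 the main node chr5:145181754-145182040 was 0.866 in both groups. Of 13 tandem start nodes of the factors 5 differed by more than 0.1, 38.5% against 20.4% of all 8926. All of these lay in Cpsf4 and Cstf2. The fractions within 1 gene are tied to each other, so the nodes are not independent and the count is not a result about the factors. The largest difference was at the Cpsf4 node chr5:145167224-145167246, at 0.627 in Control gRNA and 0.372 in Tardbp gRNA. The Cpsf4 start node chr5:145167213-145167223, where Cpsf4-205 begins, was 0.0891 in Control gRNA and 0.212 in Tardbp gRNA. The share of Cpsf4-205 in transcript counts went the other way, from 34.3 to 15.5%, but did not pass (limma adjusted p = 0.314). None of the 119 cassette exon nodes of the factors differed by more than 0.1, against 0.932% of all 98533.

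Whether libraries with more of a factor used distal ends more was tested within each group of 8. The measure was the mean distal share over 2171 genes that used both kinds of end (a mean share of 10 to 90%, a summary set after the data had been seen), which was 57.3 to 58.9% for Control gRNA and 56.9 to 59.2% for Tardbp gRNA, with a difference of 0.241 points (exact two-sided permutation test, p = 0.487). Over 20 relations, Pearson's r ran from -0.77 to 0.75 and none passed (exact permutation test, adjusted p at least 0.341), with 2 at an unadjusted p under 0.05.

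Pcf11 in Control gRNA was the lowest of these, at r = -0.77 (exact permutation p = 0.0297, adjusted p = 0.341) with a rank correlation (Spearman's rho) of -0.93 (exact permutation test, p = 0.00223 and adjusted to 0.0446), and r was -0.81 without the 2 libraries farthest from the median level (exact permutation, adjusted p = 0.222). In Tardbp gRNA the same relation was r = 0.57 (exact permutation p = 0.139, adjusted p = 0.464) and rho = 0.43 (exact permutation p = 0.299, adjusted p = 0.708), and r was 0.26 without 2 libraries. The difference between the groups was not tested. The other unadjusted relation was Cpsf7 in Tardbp gRNA, at r = 0.75 (exact permutation p = 0.039, adjusted p = 0.341) and rho = 0.71 (exact permutation p = 0.0576, adjusted p = 0.384), with r = 0.64 without 2 libraries. By rank alone, Cpsf3 in Tardbp gRNA had rho = -0.79 (exact permutation p = 0.0279, adjusted p = 0.279) and r = -0.70 (exact permutation p = 0.0512, adjusted p = 0.341), with r = -0.74 without 2 libraries.

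The genes whose log2 CPM followed Nudt21 most closely over the 16 libraries, after the group means had been subtracted, were Psmd14 (r = 0.92), Mcts1 (r = 0.89) and Usp16 (r = 0.89). For Pcf11 they were Gm28043 (r = 0.89), Vegfa (r = 0.87) and Prdm2 (r = 0.83). Vegfa was low, at a mean log2 CPM of -1.63. These are the highest values among all genes tested and are given as a description, with what the libraries share in depth not removed. Nudt21 and Pcf11 themselves had r = -0.53, and the pairs among the 6 factors that fell ran from r = -0.14 (Cpsf2 and Cpsf3) to r = 0.74 (Cpsf2 and Cstf2) by the same measure.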

How the data were processed

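RNA of 16 sorted CD8+ T cell libraries was sequenced by the submitters with SMART-Seq v4 and Nextera XT as paired reads. Per the labels, the authors aligned with HISAT2 2.1.0 to mm10, used SAMtools 1.9 and made the deposited estimated counts per gene and transcript with StringTie 2.1.0, without normalization. Values were whole numbers and used as given. The gene test used edgeR 4.0.16 under R 4.3.3 (quasi-likelihood, TMM, filterByExpr with minimum count 10, minimum total 15 and proportion 0.7, 8 against 8, no covariate), with Benjamini-Hochberg adjustment over all genes at 0.05, and transcripts likewise. The libraries were taken as separate samples, and p-values measure the spread between them.

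Transcript shares (mean gene count over 10) and distal-end shares (ends joined within 200 bases, mean gene count over 50) were tested with limma 3.58.1. TPM used annotated transcript lengths of GENCODE M21 (GRCm38). The library mean of distal share took genes between 10 and 90%. Permutation tests used SciPy 1.17.1. The smallest p that 8 against 8 can give is 0.000155, and 0.00781 for 8 sign-flips. Lines that name no gene (0.0836 to 0.132% of counts) and 10 columns of each table that match no sample were left out. Count precision is limited by the library totals, and a StringTie count is not an independent molecule. Transcript counts were divided between forms by StringTie.

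The authors' Psi fraction per group was deposited with their own differences and probabilities, which hold the study's comparisons and were not used. The concentration and letter M or F were as deposited, with facility counts of read pairs. Sequences were read from the GENCODE transcripts.

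The 10 factors and all lists were chosen with earlier results of these data known. Named were all 10 factors, the lowest and highest called gene of each other list and every called transcript. Transcripts of Pcf11, Nudt21 and Cstf2 over 1 CPM, tandem end nodes and the 3 genes most like Nudt21 and Pcf11 were named too. Tandem start nodes of Cpsf4 were added after their values had been seen. Alternatives were DESeq2 1.42.0, other size factors, no filter, a replicate block, library subsets, covariates, other end distances and leaving out each library. Models were tested on simulated data. The result of 1 marker list is not reported here.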

Additional observations from a re-analysis of the deposited data

Results flagged for a closer look

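Of 84 sets of 8 values examined, 8 held a library that stood apart from the other 7 (Dixon's test), where chance alone marks about 1 in 20. In Tardbp gRNA, Tardbp was lowest in replicate 3, at 110.4 CPM with the next at 129.8 CPM. The ratio of Cpsf6 to Cpsf7 was highest in the same library, at 4.32 with the next at 3.78. Tardbp gRNA replicate 7 had the highest distal share of Nudt21, at 20.8% with the next at 12.1%, and the highest Nudt21-201, at 119.2 CPM with the next at 81.8 CPM.

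In Control gRNA, replicate 1 had the highest distal share of Pcf11, at 86.9% with the next at 80.7%. Pcf11-201 was highest in replicate 6, at 39.98 CPM with the next at 36.4 CPM. Cpsf3-201 was lowest in replicate 2, at 186.5 CPM with the next at 198.9 CPM. Cstf2-207 was highest in replicate 3, at 19.4 CPM with the next at 2.23 CPM, and without that library its log2 fold change turned from -0.79 to 0.54.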

How the results depend on the processing

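Of 1336 values recomputed under an alternative, 6 counts moved by over 1.5 times, 49 single values lost their call, 4 gained one and 15 changed sign. The others kept direction and call. The count of 6 lower factors was 5 to 6 under the alternatives and 6 to 7 without 1 library. With log2 RNA concentration as a covariate, 5 of the other mRNA end-forming factors were called against 10, and 3 transcripts of the members against 10, and this covariate does not overlap between the groups. The replicate block gave 6 such transcripts (Nudt21-201, Cpsf4-205, Cstf2-201 and Cstf2-202 were lost) and 20 called distal shares over all genes against 43, and numbers 4 to 8 only also gave 20. The concentration covariate also ended the calls of Cpsf4, Pabpn1 and Lsm10 and of the transcripts Cpsf1-201, Cpsf2-201, Cpsf6-206, Cstf2-201, Cstf2-202, Nudt21-201 and Pcf11-205, and numbers 4 to 8 only those of Cpsf4-205, Cpsf6-206, Cstf2-202 and Nudt21-201. Without 1 library the ranges were 9 to 11 other factors, 8 to 11 transcripts, 30 to 52 distal shares and 6 to 7 ratios. The order of levels had 0 called pairs in numbers 4 to 8 only, where the exact sign-flip permutation test cannot go below p = 0.0625.

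The signs that turned belonged to values that did not pass. The Nudt21 level had a log2 fold change of 0.027 in numbers 4 to 8 only, 0.00995 with the concentration, and -0.048 to 0.011 without 1 library. The Cstf2-203 level was 0.19 in numbers 4 to 8 only. The Cstf2-207 level was 0.053 with the block, 1.03 in numbers 4 to 8 only and -1.20 to 0.54 without 1 library. The distal share of Cstf2 was -8.75 points in numbers 4 to 8 only and -3.37 to 3.74 points without 1 library. Pcf11 against Nudt21 was -0.062 to 0.067 without 1 library.

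Libraries of equal number had correlations of -0.005 to 0.16 in their deviations from the group means, and 2 of 8 Control gRNA and 3 of 8 Tardbp gRNA libraries correlated best with their own number, so the numbers were not taken as pairs. The block changed no other call of a named gene or transcript, and the Pcf11 distal share had a limma adjusted p of 0.0617 with it.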
